A study of Homo sapiens with 6 samples.

Results

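A set of 46 genes of ribosome biogenesis and RNA polymerase I transcription was followed in H69 cells, a human cell line, after treatment with trichostatin A (TSA). The genes were chosen by symbol, and all 46 were found among the 31814 genes of the deposited expression table, each in a single row. Messenger RNA was sequenced from 3 libraries of cells kept for 24 h with the solvent DMSO (vehicle) and from 3 libraries of cells kept for 24 h with 1 µM TSA, an inhibitor of histone deacetylases. The treated samples carry HSA in their treatment tag, whereas TSA is what the protocol and the series design name. Neither the tissue of the line nor the independence of the cultures behind the 3 libraries is stated in the labels. The p-values therefore rest on a spread among libraries that may be purely technical. The name H69 is in use for a small cell lung cancer line and for a bile duct line.

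Ribosomes are assembled in the nucleolus. RNA polymerase I, with the upstream binding factor UBTF, the initiation factor RRN3 and the TAF1 subunits of the selectivity factor SL1, transcribes a long precursor RNA from the ribosomal DNA repeats. Small nucleolar ribonucleoproteins of the box C/D and box H/ACA classes modify this precursor, and large processing complexes cut and fold it into the RNA of the small and the large subunit. Output of the pathway is coupled to cell growth, and many of its genes are known targets of MYC-family transcription factors, which bind the E-box sequence CACGTG.

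Levels are given as TPM, the share of a library's transcripts after scaling by gene length, so they can be compared between genes. Being shares, they depend on all other genes, and in bulk RNA fewer cells with a transcript and less of it per cell cannot be told apart. Whole reads recovered from the table, a lower bound of the depth, ranged from 22533307 to 26148651 per library. Replicate 1 of the TSA group stood apart from its group, with a Pearson correlation over tested genes of 0.959 and 0.968 with the other TSA libraries against 0.990 between those. In vehicle it was replicate 2 that correlated least, at 0.97 and 0.98 with the other vehicle libraries against 0.985 between those. Mitochondrial genes held 4.97% to 12.3% of the TPM of the vehicle libraries and 7.65% to 16.9% of the TSA libraries. TSA replicate 1 had the highest share and vehicle replicate 2 the lowest. All 8 neuroendocrine markers examined were above 0 in vehicle, with a summed level of 1526 to 1820 TPM, and in TSA it was 668 to 776 TPM. In the test below 5 of the 8 were called lower, 2 higher and 1 was not called. Of 6 bile duct markers 1 was at 0 in all vehicle libraries, and the sum was 202 to 302 TPM in vehicle and 109 to 159 TPM in TSA. Among the 5 of them that were tested 2 were called lower, 1 higher and 2 were not called. Beside both marker counts, 34.2% of all tested genes were called lower and 28.0% higher, or 62.2% in either direction. Of 6 fibroblast markers 5 were at 0 in all vehicle libraries, and their sum was 0.211 to 0.906 TPM in vehicle and 5.34 to 7.20 TPM in TSA. Of 5 immune markers 2 were at 0 in all vehicle libraries and 1 in all TSA libraries, with sums of 4.08 to 4.92 and 5.41 to 6.07 TPM. The summed level of 10 proliferation genes was 4521 to 5044 TPM in vehicle and 1998 to 2666 TPM in TSA. All 10 were lower in TSA, and 9 were called lower in the test below, against 34.2% of all tested genes. The part of these differences in the results below was not tested.

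All 46 genes passed the filter of 1 TPM in at least 3 of the 6 libraries, and they moved in both directions after TSA. UBTF, the factor that opens ribosomal DNA for RNA polymerase I, fell 10.5-fold, while ODC1, the enzyme that begins polyamine synthesis, rose 2.67-fold. Between these, 16 genes rose and 13 fell, counting both, and 17 did not pass the test (limma on log2(TPM + 1), adjusted p under 0.05 over all 17596 tested genes). Among all tested genes 28.0% were called higher and 34.2% lower, or 62.2% in either direction, against 63.0% of the 46 genes. The share of called members was therefore near the background and is no result about them. The same shares over all tested genes apply to the counts of each smaller list below. The groups did not overlap for 32 members, or 69.6%, and for 67.0% of all tested genes.

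The size of the changes was smaller in the set than over the genome. The median absolute log2 fold change was 0.44 over the members and 0.72 over all tested genes. Of the 46 members 40 (87.0%) changed less than 2-fold, against 63.6% of all tested genes and 64.7% of the 9843 tested genes whose mean in the higher group was at least that of the lowest member. At least 2-fold and past the test, 2 members were higher (background 15.5%) and 4 were lower (background 19.7%, and 35.2% in either direction). The 2 were ODC1 and POLR1E, and the 4 were UBTF, UTP20, NOB1 and UTP18. The median log2 fold change of the members was 0.10, beside −0.095 over all tested genes. A median-of-ratios scaling moved the median of all tested genes to 0.0085 and that of the members to 0.22, while without TSA replicate 1 the medians were −0.25 and −0.013. The members' median thus turned sign without that library, and not under the median-of-ratios scaling.

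**Figure D1:**
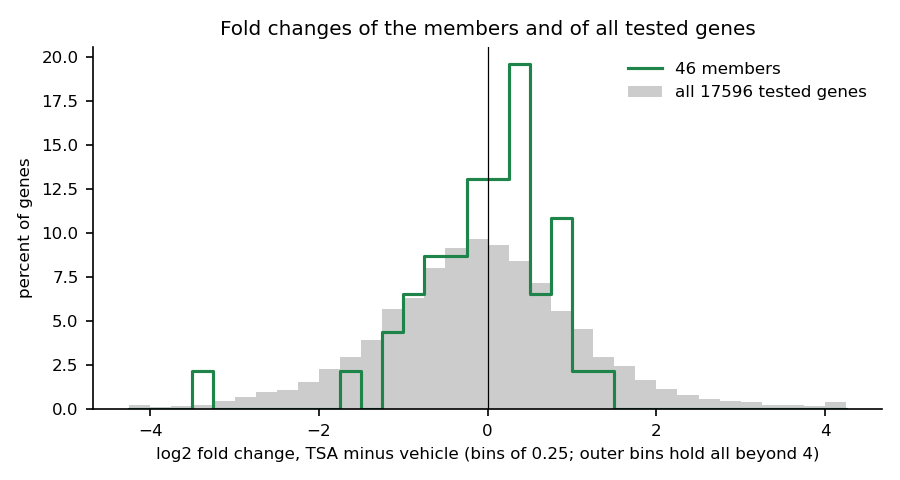
Distribution of log2 fold changes (TSA minus vehicle, x axis, bins of 0.25) as percent of genes (y axis), for all 17596 tested genes (grey bars) and the 46 members (green line). The members lie closer to 0 than the tested genes, with a median absolute value of 0.44 against 0.72, and UBTF alone lies beyond −3.

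**Figure D2:**
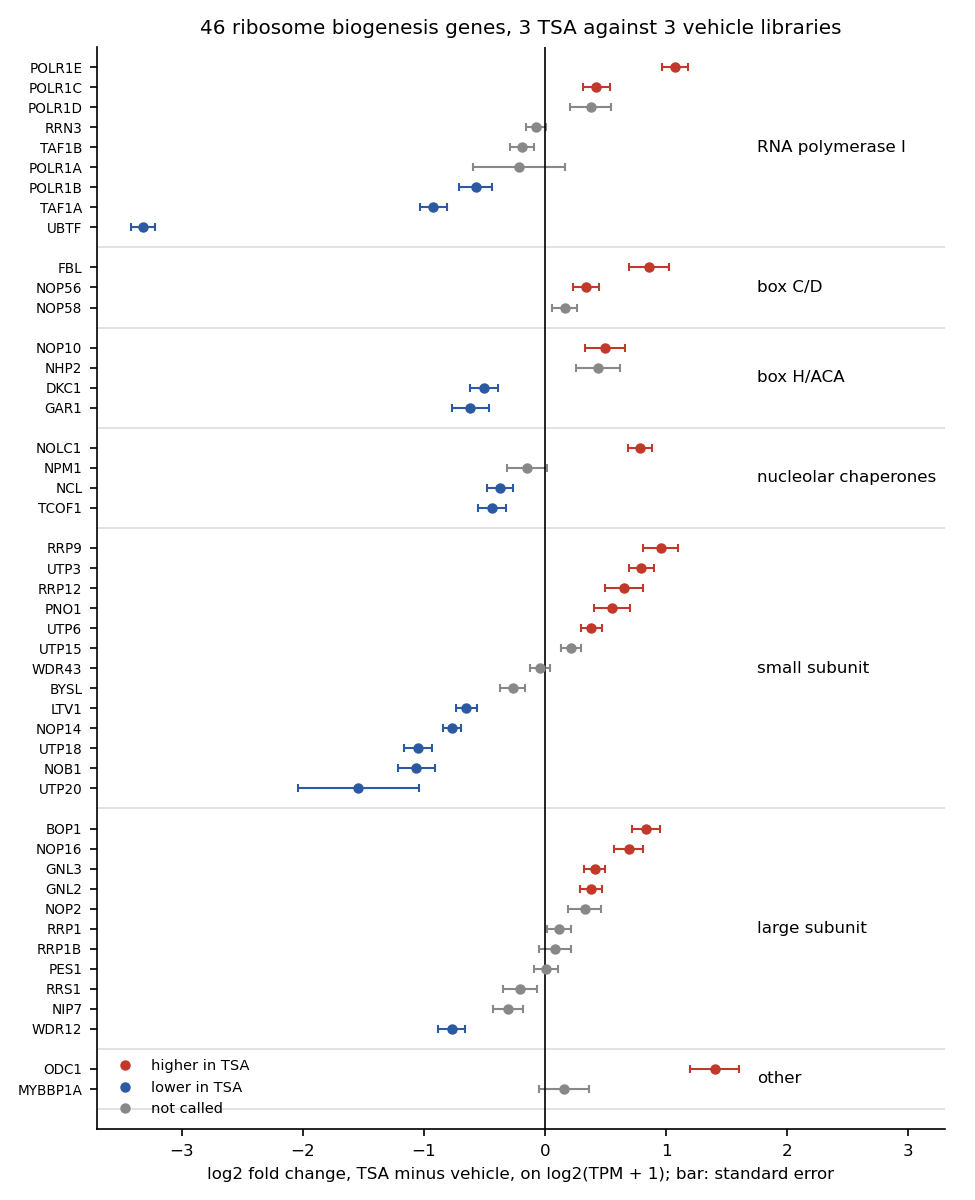
Log2 fold change of each of the 46 genes with its standard error (x axis), grouped by role, 3 TSA against 3 vehicle libraries. Red points were called higher (16), blue points lower (13) and grey points were not called (17), and every role but box C/D and the last pair held genes called in each direction.

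Promoters were compared because many ribosome biogenesis genes carry E-boxes, and the sequences below show where the motif sits beside genes that moved in opposite directions. RefSeq promoters (GRCh38.p14, 250 bases before to 50 after an annotated start) were matched by symbol for 38 of the 46 genes, with 47 promoters in all. BOP1, NOLC1, NOP58, POLR1E, RRP12, RRP1B, RRS1 and TCOF1 had no entry. The E-box CACGTG, which reads the same on both strands, was present in 17 of the 47 promoters (36.2%), against 9.10% of 14625 promoters of tested genes and 7.26% of all 35116 promoters in the table. In each of the 17 an E-box began within 60 bases before the start or after it, as in 44.9% of the 1331 promoters of tested genes that hold the motif. In 12 of the 17 every E-box began after the start, against 115 of the 1331 promoters of tested genes with the motif. In 4 of the 17 an E-box lay wholly before the start, against 1186 of the 1331. Those 4 are shown here 5′ to 3′ up to the start or 30 bases past the motif, with the E-box in capitals. Of the E-boxes wholly before the start only the nearest is shown, and NOP10 holds 2 of these. The E-box shown for UTP18 begins 89 bases before the start, so UTP18 also holds another that is nearer to the start or past it. ODC1 (chr2:10448013-10448071, minus strand) and NOP10 (chr15:34343137-34343177, minus strand) were higher in TSA, and UTP20 (chr12:101280065-101280104, plus strand) and UTP18 (chr17:51260427-51260492, plus strand) were lower.
ODC1: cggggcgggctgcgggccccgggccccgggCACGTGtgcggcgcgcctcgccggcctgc
NOP10: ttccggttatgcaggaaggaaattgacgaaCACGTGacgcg
UTP20: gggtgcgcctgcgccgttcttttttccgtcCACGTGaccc
UTP18: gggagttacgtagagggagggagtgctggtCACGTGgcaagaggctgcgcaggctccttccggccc

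The motif was found beside genes of each outcome, and whether its share differs between them was not tested. It was present in 7 of 12 matched members that rose (ODC1, RRP9, FBL, PNO1, NOP10, GNL3 and GNL2), in 5 of 12 that fell (UTP20, UTP18, NOP14, LTV1 and GAR1) and in 5 of 14 that were not called (NOP2, MYBBP1A, PES1, WDR43 and BYSL). No E-box was found in the promoters of UBTF. The 120 bases before a start of UBTF (chr17:44220883-44221002, minus strand) hold 3 copies of the GC box GGGCGG, shown in capitals, a motif of either strand found in 33 of the 47 promoters of members (70.2%), in 65.7% of those of tested genes and in 45% of all promoters.
UBTF: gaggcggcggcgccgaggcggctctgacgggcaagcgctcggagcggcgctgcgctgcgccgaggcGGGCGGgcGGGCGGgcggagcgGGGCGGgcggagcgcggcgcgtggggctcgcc
The motifs are matches of letters within these windows and no measure of binding.

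RNA polymerase I and its initiation factors changed unevenly, with 2 of 9 genes higher, 3 lower and 4 not called. UBTF (ENSG00000108312.10) was at 164, 163 and 166 TPM in vehicle replicates 1, 2 and 3 and at 17.8, 14.7 and 14.4 TPM in TSA replicates 1, 2 and 3. Every TSA library was far below every vehicle library. On the log2 scale the difference was −3.32 (standard error 0.10, limma adjusted p 5.5e-06), and at least 715 reads lay behind each value. Among the 46 genes UBTF went from the 11th highest mean level in vehicle to the 42nd in TSA. TAF1A, a subunit of the selectivity factor SL1 that recruits the polymerase, was at 36.5, 44.7 and 39.7 TPM in vehicle and at 22.1, 20.5 and 19.7 TPM in TSA, a log2 fold change of −0.92 (standard error 0.11, limma adjusted p 0.0004). TAF1B, another SL1 subunit, was at 28.7 ± 0.783 TPM and 25.1 ± 1.99 TPM (mean ± SD, n = 3 each) and did not pass the test (limma adjusted p 0.14). RRN3, which links the polymerase to SL1, was at 121 ± 6.93 and 115 ± 4.95 TPM, with overlapping groups (limma adjusted p 0.48).

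The polymerase subunits themselves split. POLR1E, which forms a dimer on the side of the enzyme, was at 66.4, 83.8 and 76.1 TPM in vehicle and at 162, 161 and 155 TPM in TSA. The groups were well apart (log2 fold change 1.07, standard error 0.10, limma adjusted p 0.00017). POLR1C, a subunit shared with RNA polymerase III, rose from 41.5 ± 5.07 to 55.8 ± 1.58 TPM (limma adjusted p 0.013). Its assembly partner POLR1D had means of 55.9 ± 6.36 and 73.6 ± 14.7 TPM and missed the threshold (limma adjusted p 0.096). It was called higher without TSA replicate 1, where the log2 fold change was 0.55 in place of 0.38 and the limma adjusted p 0.0062. POLR1B, the subunit that builds the active site together with POLR1A, fell from 34.9 ± 2.95 to 23.3 ± 3.63 TPM (limma adjusted p 0.0092). POLR1A, the largest subunit, was at 18.1, 9.77 and 17.4 TPM in vehicle and at 21.8, 9.01 and 9.65 TPM in TSA. Its groups overlapped, with TSA replicate 1 above all 3 vehicle libraries (limma adjusted p 0.65). The summed level of the 9 genes was 555 to 591 TPM in vehicle and 488 to 515 TPM in TSA, while UBTF alone went from a mean of 164 to one of 15.6 TPM.

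**Figure D3:**
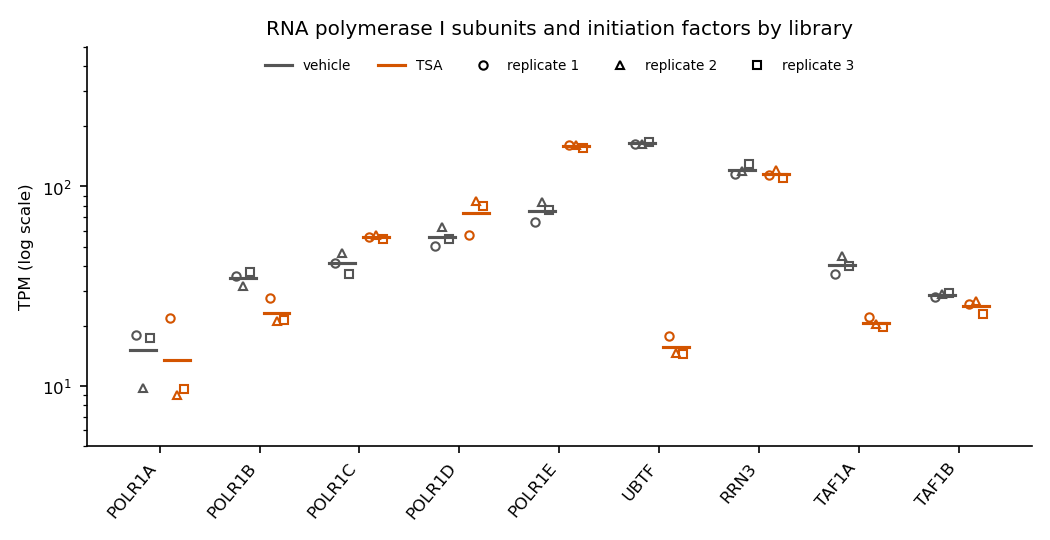
TPM (log scale, y axis) of the 9 RNA polymerase I genes in each of the 6 libraries, with the group means as bars and the replicates by symbol. UBTF drops from 163 to 166 TPM in vehicle to 14.4 to 17.8 TPM in TSA, POLR1E rises, and for POLR1A replicate 1 is the highest library of each group.

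Of 11 further subunits and factors of the polymerase 6 rose and 2 fell, with a median log2 fold change of 0.47. In total 72.7% of the 11 were called. Among all tested genes 62.2% were called, 28.0% higher and 34.2% lower. POLR2L, a small subunit common to all 3 nuclear polymerases, was at 134, 178 and 137 TPM in vehicle and at 649.5, 960.0 and 1017 TPM in TSA (log2 fold change 2.53, limma adjusted p 8.4e-05). CD3EAP, the partner of POLR1E in its dimer, rose 3.10-fold from 21.0 ± 1.49 to 65.0 ± 1.21 TPM (limma adjusted p 2e-05). POLR2E, another common subunit, rose 2.79-fold from 65.2 ± 7.06 to 182 ± 24.5 TPM. The common subunits also serve RNA polymerases II and III.

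The box C/D proteins, which carry out 2′-O-methylation of ribosomal RNA, were higher or not called. FBL, the methyltransferase fibrillarin, was at 206, 280.5 and 218 TPM in vehicle and at 356, 467 and 455 TPM in TSA, all above the vehicle libraries (log2 fold change 0.86, standard error 0.17, limma adjusted p 0.0038). NOP56, a scaffold of the particle, rose from 311 ± 7.42 to 395 ± 37.0 TPM (limma adjusted p 0.027). That call ended without TSA replicate 3 (0.0757), without vehicle replicates 1 (0.0715), 2 (0.0525) or 3 (0.0944), with both replicate 1 libraries left out (0.0706), with length and GC trends removed (0.0685) and under a quantile scaling (0.0561). NOP58, the other scaffold, was at 144 ± 15.8 and 161 ± 6.33 TPM (limma adjusted p 0.22). The RNA-binding core protein gene NHP2L1, which is not among the 46 and was picked after its values were seen, was at 138 ± 20.8 and 214 ± 34.5 TPM (limma adjusted p 0.015, and 0.0508 without TSA replicate 2 and 0.0551 without TSA replicate 3).

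The 4 box H/ACA proteins, which turn uridine of ribosomal RNA into pseudouridine, moved apart. DKC1, the pseudouridine synthase dyskerin, was at 308, 354 and 346 TPM in vehicle and at 212, 258 and 240.3 TPM in TSA, all lower (log2 fold change −0.50, limma adjusted p 0.0075). GAR1, which aids the release of the product, fell from 47.5 ± 6.59 to 30.6 ± 4.48 TPM (limma adjusted p 0.011). Both calls ended under a median-of-ratios scaling (limma adjusted p 0.0993 for DKC1 and 0.0699 for GAR1), that of GAR1 also under a quantile scaling (0.051), and both genes stayed lower there. NOP10, a small protein that supports the catalytic centre, was at 284, 371 and 286 TPM in vehicle and at 369, 505 and 453 TPM in TSA. Vehicle replicate 2 lay just above TSA replicate 1, so the groups overlapped, although the test was passed (limma adjusted p 0.038). That call ended without vehicle replicate 1 or 3 (limma adjusted p 0.113 and 0.125), without TSA replicate 2 or 3 (0.118 and 0.109), with no filter on low values (0.0674) and under a median-of-ratios scaling (0.0539). NHP2, the RNA-binding core protein, was at 219 ± 32.9 and 299 ± 57.3 TPM and missed the threshold (limma adjusted p 0.074, and 0.00836 without TSA replicate 1 and 0.0468 without vehicle replicate 2). The ratio of NOP10 to GAR1 TPM, picked after the values were seen, was 5.76 to 7.08 in the vehicle libraries and 14.1 to 14.8 in the TSA libraries.

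Among the abundant nucleolar chaperones NOLC1 rose and NCL and TCOF1 fell. NOLC1, which binds small nucleolar particles and RNA polymerase I, was at 218, 241 and 257 TPM in vehicle and at 416, 418 and 402 TPM in TSA (log2 fold change 0.79, standard error 0.10, limma adjusted p 0.00053). The groups were far apart. TCOF1, the treacle protein and a relative of NOLC1 in function, went from 49.1 ± 1.97 to 36.2 ± 4.57 TPM (log2 fold change −0.44, limma adjusted p 0.013, and 0.0515 without TSA replicate 3). NCL, nucleolin, went from 597 ± 48.9 to 462 ± 3.69 TPM (log2 fold change −0.37, limma adjusted p 0.022). Its call ended without TSA replicate 2 or 3 (0.0723 and 0.0902), without vehicle replicate 3 (0.0883), under a median-of-ratios scaling (0.206) and with voom on recovered reads (0.0977). NPM1, nucleophosmin, which carries ribosomal subunits to the cytoplasm, was at 617, 759 and 702 TPM in vehicle and at 513, 721 and 649 TPM in TSA, with overlapping groups (limma adjusted p 0.46). The table lists 33 pseudogenes of NPM1 with a summed mean of 59.6 TPM in vehicle and 57.3 TPM in TSA, so the split of reads between these copies and NPM1 is uncertain.

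Of 13 genes of the small subunit pathway 5 were higher, 5 lower and 3 not called. Of those that fell, UTP18, a subunit of the processome on the nascent transcript, was at 202, 233 and 197 TPM in vehicle and at 92.4, 113 and 98.5 TPM in TSA (log2 fold change −1.05, standard error 0.12, limma adjusted p 0.00029). NOB1, the endonuclease that makes the final cut at the end of 18S ribosomal RNA, was at 29.5, 36.4 and 31.4 TPM in vehicle and at 12.2, 16.3 and 16.8 TPM in TSA (log2 fold change −1.06, standard error 0.15, limma adjusted p 0.00096). No TSA library of either gene reached a vehicle library. NOP14, which is needed for nuclear export of the small subunit, fell from 72.8 ± 2.43 to 42.3 ± 0.465 TPM (limma adjusted p 0.00018). Its antisense gene NOP14-AS1 was at 2.26 and 6.59 TPM, and without a stated strand setting their reads cannot be told apart. LTV1, a factor that must leave the late particle, fell from 92.8 ± 6.23 to 58.8 ± 1.76 TPM (limma adjusted p 0.00067).

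UTP20, a very large scaffold protein, was at 37.8, 16.1 and 26.9 TPM in vehicle and at 17.8, 5.48 and 5.18 TPM in TSA. TSA replicate 1 lay above vehicle replicate 2, so the groups overlapped (log2 fold change −1.54, standard error 0.50, limma adjusted p 0.032). The call ended without vehicle replicate 1 or 3 (limma adjusted p 0.0957 and 0.0893) and without TSA replicate 2 or 3 (0.0916 and 0.0985), while the log2 fold change was −1.79 with both replicate 1 libraries left out. Its longest GENCODE 29 transcript has 9025 nt and that of POLR1A has 12749 nt, against a median of 2760 nt over the 45 members with a length. For both genes replicate 1 was the highest library in each group, and in vehicle replicate 2 was the lowest. POLR1A was close in vehicle replicates 1 and 3 (18.1 and 17.4 TPM), with replicate 2 apart at 9.77 TPM. UTP20 was higher in replicate 1 than in the mean of replicates 2 and 3 by 0.83 in vehicle and 1.57 in TSA on the log2 scale, and POLR1A by 0.44 and 1.14. At the other end NOP10, with 554 nt, was lower in replicate 1 by 0.20 and 0.38. In vehicle its replicates 1 and 3 were alike (284 and 286 TPM), and replicate 2 was higher at 371 TPM. WDR12, with 8100 nt, differed by 0.03 in vehicle and 0.01 in TSA. The part of transcript length in these differences was not tested.

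**Figure D4:**
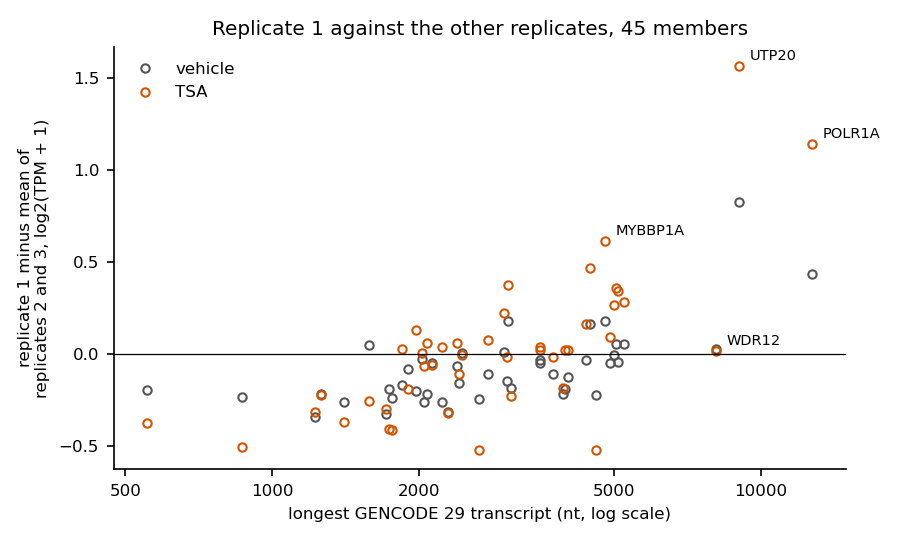
Difference between replicate 1 and the mean of replicates 2 and 3 on the log2(TPM + 1) scale (y axis) against the longest GENCODE 29 transcript (nt, log scale, x axis) for 45 members, in vehicle (grey) and TSA (orange). UTP20 (0.83 and 1.57) and POLR1A (0.44 and 1.14) lie highest, while short transcripts such as NOP10 lie below 0. In vehicle POLR1A and NOP10 were close in replicates 1 and 3, and replicate 2 was apart.

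Of the small subunit genes that rose, RRP9, the U3 particle protein, was at 59.1, 67.7 and 48.2 TPM in vehicle and at 100.3, 119 and 121 TPM in TSA (log2 fold change 0.96, standard error 0.15, limma adjusted p 0.0013). UTP3, another processome protein, was at 35.6, 44.1 and 39.3 TPM in vehicle and at 71.5, 71.1 and 66.0 TPM in TSA (log2 fold change 0.80, limma adjusted p 0.0006). Neither gene's groups overlapped. RRP12, an export factor, was at 16.4, 14.3 and 14.8 TPM in vehicle and at 30.5, 21.0 and 22.6 TPM in TSA, with replicate 1 highest in each group (limma adjusted p 0.01). UTP6 rose from 70.6 ± 2.15 to 92.6 ± 7.01 TPM (limma adjusted p 0.0083). PNO1, the partner of NOB1 in the late particle, rose from 51.7 ± 8.24 to 76.3 ± 10.3 TPM (limma adjusted p 0.017). The PNO1 call ended without vehicle replicate 1 or 3 (0.054 and 0.0566) and without TSA replicate 2 or 3 (0.0601 and 0.0588). UTP15 (32.4 ± 1.07 and 37.8 ± 1.45 TPM), BYSL (53.2 ± 4.85 and 44.0 ± 2.84 TPM) and WDR43 (61.9 ± 1.94 and 60.0 ± 3.04 TPM) were not called, although the groups of UTP15 and BYSL did not overlap.

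Of 39 further small subunit genes 12 rose and 13 fell, with a median log2 fold change of 0.14. In total 64.1% of the 39 were called, against 62.2% of all tested genes. DHX37, an RNA helicase of the processome, fell 2.37-fold from 17.7 ± 0.341 to 7.47 ± 1.28 TPM (limma adjusted p 0.00051). RRP7A rose from 37.0 ± 2.74 to 67.4 ± 2.32 TPM, and NOL11 fell from 146 ± 5.15 to 84.3 ± 3.02 TPM.

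In the large subunit pathway 4 of 11 genes rose, 1 fell and 6 were not called. The PeBoW complex, which processes the precursor of the large subunit RNA, showed each outcome. Its subunit BOP1 was at 10.4, 9.19 and 10.2 TPM in vehicle and at 17.4, 18.1 and 20.1 TPM in TSA (log2 fold change 0.83, standard error 0.12, limma adjusted p 0.00083). WDR12 was at 20.3, 19.9 and 19.7 TPM in vehicle and at 11.4, 12.4 and 10.2 TPM in TSA (log2 fold change −0.77, limma adjusted p 0.0011, and 0.0631 with length and GC trends removed). PES1 was at 51.7 ± 5.40 and 52.0 ± 1.68 TPM, with overlapping groups (limma adjusted p 0.93). The mean of WDR12 was above that of BOP1 in vehicle and below it in TSA.

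NOP16, a nucleolar protein, rose from 39.9 ± 4.76 to 65.0 ± 5.86 TPM (limma adjusted p 0.0023). The nucleolar GTPases GNL3, also known as nucleostemin, and GNL2 rose from 138 ± 7.13 to 184 ± 10.9 TPM and from 95.5 ± 6.53 to 125 ± 7.02 TPM (limma adjusted p 0.0064 and 0.01). NOP2, a methyltransferase of 28S ribosomal RNA, was at 68.4, 64.1 and 56.8 TPM in vehicle and at 94.7, 73.6 and 71.7 TPM in TSA. Its groups did not overlap, but it missed the threshold (limma adjusted p 0.072). NOP2 was called higher under 4 of 19 alternatives, among them a median-of-ratios scaling (limma adjusted p 0.0129) and a quantile scaling (0.0253). NIP7 had means of 33.7 ± 3.97 and 27.1 ± 2.47 TPM (limma adjusted p 0.068) and RRS1 of 66.0 ± 8.96 and 57.0 ± 6.95 TPM (0.24). RRP1 (53.9 ± 4.99 and 58.5 ± 2.78 TPM) and its paralog RRP1B (134 ± 13.1 and 143 ± 20.6 TPM) were not called.

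Of 44 further large subunit genes 7 rose and 13 fell, with a median log2 fold change of −0.098. In total 45.5% of the 44 were called, against 62.2% of all tested genes. EBNA1BP2 rose 2.56-fold from 107 ± 13.8 to 274 ± 43.1 TPM, ZNF622, a factor of late cytoplasmic maturation, rose 2.14-fold, and BRIX1 fell 2.20-fold from 114 ± 16.7 to 52.0 ± 5.96 TPM (limma adjusted p 0.00034, 0.00074 and 0.0005). Of 15 genes of the RNA exosome and its helpers, which trim precursor RNA, 8 fell and 1 rose, with a median of −0.37. In total 60% of the 15 were called. Among all tested genes 62.2% were called, 28.0% higher and 34.2% lower. EXOSC10, a nuclear exonuclease of the exosome, was at 104, 89.6 and 90.4 TPM in vehicle and at 36.5, 28.3 and 28.3 TPM in TSA (log2 fold change −1.59, limma adjusted p 8.3e-05). EXOSC8, a core subunit, fell 2.64-fold, and SKIV2L2, the helicase that feeds the exosome, fell 1.64-fold. Over all 109 further pathway genes 26 rose and 36 fell with a median of −0.097, beside −0.095 over all tested genes. Under a median-of-ratios scaling the counts were 30 and 23, and under a quantile scaling 37 and 23, so the balance of direction depends on the scaling.

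ODC1, ornithine decarboxylase, is not a ribosome factor. It makes putrescine, the precursor of the polyamines, and is a classic MYC target. It had the highest mean level of the 46 genes in each group. ODC1 was at 717, 902 and 800.4 TPM in vehicle and at 1669, 2502 and 2296 TPM in TSA (log2 fold change 1.40, standard error 0.20, limma adjusted p 0.00099). All TSA libraries lay above all vehicle libraries, and TSA replicate 1 was the lowest of its group. The summed level of the 46 genes was 5680 to 6526 TPM in vehicle and 6987 to 8401 TPM in TSA. Without ODC1 it was 4963 to 5624 and 5318 to 5899 TPM, and the groups overlapped. MYBBP1A, a nucleolar protein that binds RNA polymerase I, was at 14.6 ± 1.67 and 16.7 ± 4.79 TPM (limma adjusted p 0.54).

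Of 9 further polyamine genes 5 rose, 2 fell and 2 were not called. In total 77.8% of the 9 were called, against 62.2% of all tested genes. SAT1, the acetyltransferase that begins polyamine breakdown, was at 57.0, 40.3 and 49.0 TPM in vehicle and at 215, 212 and 209 TPM in TSA (log2 fold change 2.11, standard error 0.13, limma adjusted p 3e-05). SMOX, spermine oxidase, was at 0.727, 0.773 and 0.543 TPM in vehicle and at 13.6, 13.7 and 13.9 TPM in TSA (log2 fold change 3.14). Its vehicle values were all under 1 TPM, so SMOX passed the filter only through the TSA libraries. With no filter on low values its limma adjusted p was 5.46e-05. At such low levels the pseudocount of 1 shrinks the change: the ratio of the mean TPM of SMOX was 20.2, and its log2 fold change was 4.16 with a pseudocount of 0.1 and 4.46 with voom on recovered reads. SMS, spermine synthase, went the other way, from 212, 263 and 248 TPM in vehicle to 58.0, 76.1 and 69.6 TPM in TSA (log2 fold change −1.82, limma adjusted p 5.8e-05). The groups were apart for all 3 genes. The next genes were picked after their values were seen, to complete the list. SRM, spermidine synthase, fell from 126 ± 21.4 to 68.3 ± 17.6 TPM, and PAOX, another oxidase of breakdown, rose from 1.53 ± 0.0512 to 3.38 ± 0.0775 TPM. The antizymes OAZ1 and OAZ2, which send ODC1 protein to degradation, rose from 471 ± 74.8 to 958 ± 232 TPM and from 28.0 ± 3.62 to 56.0 ± 6.53 TPM. AMD1, which supplies the aminopropyl donor, and the antizyme inhibitor AZIN1 were not called (limma adjusted p 0.91 and 0.34).

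**Figure D5:**
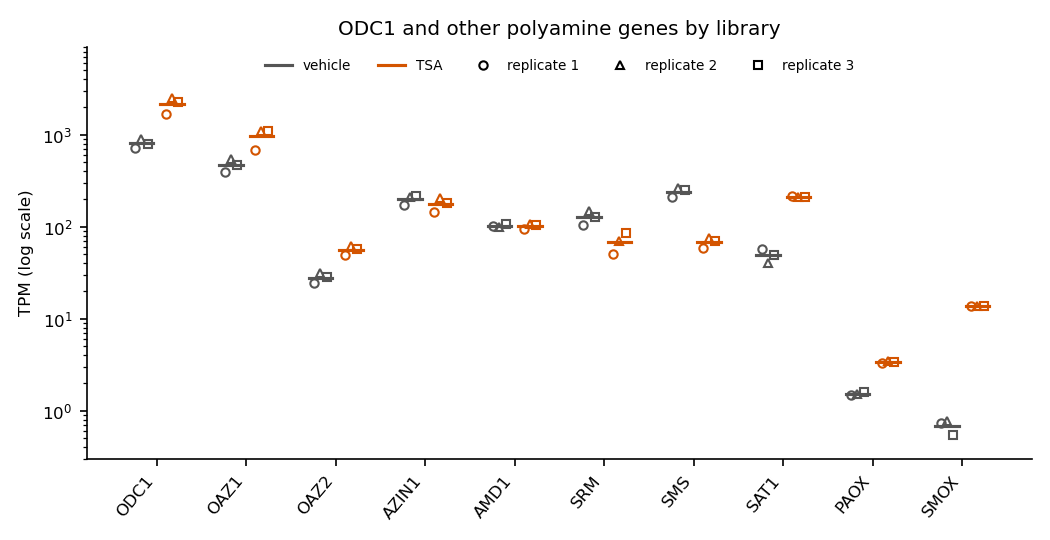
TPM (log scale, y axis) of ODC1 and 9 other polyamine genes in each of the 6 libraries, with group means as bars and replicates by symbol. ODC1, OAZ1, OAZ2, SAT1, PAOX and SMOX lie higher in TSA, SRM and SMS lie lower, and AZIN1 and AMD1 overlap.

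ODC1, NPM1 and NCL had the 3 highest mean levels in vehicle and in TSA, in that order, although the vehicle values of ODC1 and NPM1 overlapped. At the low end BOP1 was last in vehicle with 9.96 ± 0.668 TPM and UTP20 was last in TSA with 9.48 ± 7.17 TPM. In the authors' deposited table, which compares the same groups, 15 of the 46 genes were higher and 10 lower at an FDR under 0.05. That level was reached by 41.3% of all genes of that table, whether or not they passed the filter used here. All 46 members passed that filter, so the 41.3% is no matched background for them. All 29 members called here had the same sign in the authors' deposited table, in which UBTF had a log2 fold change of −3.33, ODC1 of 1.5 and POLR1E of 1.15. Of these members NCL (FDR 0.31), DKC1 (0.1), NOP56 (0.099) and TCOF1 (0.084) missed an FDR of 0.05 there. Both fits rest on the same libraries, so a shared sign is no independent support.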

How the data were processed

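Polyadenylated RNA was sequenced with a stranded kit, per the labels' protocols. Per the submitters' processing notes, the genome was hg19 and the tools included STAR 2.5.3a, featureCounts and edgeR, next to FastQC 0.11.2 and Picard 1.127, with no roles stated. The names of the deposited tables give GENCODE 19. The strand setting was not given in the sources used here. The authors deposited TPM values, each library summing to 1000000. The authors' deposited table gives a log2 fold change and log2 mean level, a likelihood ratio score, and a p-value and FDR per gene, per the file headers; its sign follows the TPM values, positive being higher in TSA.

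Genes reaching 1 TPM in 3 or more libraries were tested with limma 3.58.1 under R 4.3.3 (a linear model with moderated, mean-dependent variance) on log2(TPM + 1), two-sided, Benjamini-Hochberg adjusted over all tested genes, threshold 0.05; residual degrees of freedom with the prior were 6.59. This scale understates changes of low genes. Ratios of TPM values between libraries gave whole reads for all 27644 genes above 0 in at least 2 libraries (relative tolerance 1e-12). These are the smallest whole numbers and so lower bounds. Libraries of the same group were further apart than counting noise (chi-square per degree of freedom 7.97 to 105). Transcript lengths are from GENCODE 29 and promoters from RefSeq on GRCh38.p14, which is not the build of the table. Reads shared with near-identical copies are uncertain. The test was checked on simulated data. There few genes changed, and libraries of a group differed only by depth and random noise. The check therefore does not cover changes as widespread as these or a library that stands apart.

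All 46 members could be named; of other lists, up to 3 genes past the test with the largest absolute change. The members and lists were chosen with earlier results of these data known. Alternatives were pseudocounts, filters, scalings, variance settings, a replicate block, leaving out libraries, voom on recovered reads and removal of length and GC trends. Leaving out mitochondrial genes was added after seeing the data. Figures were drawn with matplotlib 3.10.9.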

Additional observations from a re-analysis of the deposited data

How the results depend on the processing

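All 29 called members kept their direction under the alternatives run for them, and 20 of them stayed past the threshold under each of these. There were 19 alternatives, and 18 for BOP1, which has no transcript length and so no value with length and GC trends removed. The exceptions were DKC1, GAR1, NCL, NOP10, NOP56, PNO1, TCOF1, UTP20 and WDR12, whose values stand with the results or here. Of the 17 members not called, 7 were called under none. With their direction kept, NHP2 was called under 7 alternatives, POLR1D under 6, and NOP2 and UTP15 under 4 each. NOP58 and BYSL were called under 2 each, and NPM1, RRS1 and NIP7 under 1 each. The number of members higher ran from 13 to 20 and lower from 10 to 15. Leaving out a library gave 13 to 18 higher and 10 to 13 lower members, and 21 to 31 higher and 26 to 38 lower wider pathway genes. The wider pathway genes lower in TSA numbered 36, and 23 under a median-of-ratios scaling, 23 under a quantile scaling and 21 with voom on recovered reads. With the replicate block 19 members were higher and 15 lower, and 35 and 42 wider genes. Deviations from the group means correlated at 0.633, 0.590 and −0.073 between libraries numbered 1, 2 and 3, and vehicle replicate 3 correlated best with TSA replicate 1, so the numbers were not taken to pair the libraries. UTP20 and NOP10 also lost their calls with no filter on low values (limma adjusted p 0.0622 and 0.0674), and TCOF1 once mitochondrial genes were left out (0.0508). Among members not called the log2 fold change turned sign as follows, and the cause was not tested. RRN3 and WDR43 were at 0.0451 and 0.0751 under a median-of-ratios scaling, 0.0366 and 0.0719 under a quantile scaling, and 0.0583 and 0.0891 with voom. With length and GC trends removed RRN3 was at 0.0725, WDR43 at 0.1073, POLR1A at 0.1063, RRP1 at −0.1965, MYBBP1A at −0.0139 and PES1 at −0.2753, the last past the threshold (limma adjusted p 0.0325). With both replicate 1 libraries left out PES1 was at −0.05 and RRP1B at −0.0449. Leaving out a single library gave −0.035 to 0.0947 for PES1, −0.0309 to 0.159 for RRP1B and −0.0486 to 0.3277 for MYBBP1A.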
